A study of Talpa occidentalis with 2 samples.

Results

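The deposited gene annotation of the Iberian mole, Talpa occidentalis, held 62 gene models named BMS1P20 among 23336 models (0.266%). They were chosen by name, as every model whose identifier is BMS1P20 with or without a copy suffix, and each had 1 transcript, with 129 coding exons in all. The name was given by the annotation from a match to a target transcript, so the match and its score chose the members and are given here only as a description. The series itself profiled contacts of the FGF9 transcription start by 4C-seq, a method that sequences the fragments ligated to a chosen viewpoint, in 1 forebrain and 1 hindlimb library. Both libraries came from wild-type embryos of embryonic day 15. Contact values were not analysed here, and the annotation (build talOcc3) is 1 description of 1 genome, so no value below has a replicate, a spread over samples or a test.

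BMS1P20 is the symbol of a human pseudogene related to BMS1, a GTPase of ribosome assembly, and lies in human among the immunoglobulin lambda segments. Antibody light chains come in a kappa and a lambda form, and the variable part of each is assembled in B cells by joining a V segment to a J segment that lies before a constant region. A germline V segment has a characteristic gene structure: a short leader exon, a short intron and 1 exon for the rest of the leader and the variable domain, followed by a recombination signal in place of a splice donor. V segments form arrays of many similar units, which are hard to assemble. They are also hard to annotate, because the joined gene exists only in B cells. The questions here were where the BMS1P20 models lie, what they look like and whether they sit where lambda segments lie in other mammals.

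Most members lay on very small pieces of the assembly. They were spread over 38 of the 2074 scaffolds with models: 13 on scaffold 14, 10 on scaffold 63 and 39 on 36 other scaffolds. Of those 36 scaffolds, 33 held 1 member and 3 held 2. On 31 of them no other gene model was annotated, which left 33 members without any neighbour of another name. The same count was not made over all gene models, so it has no background here. The length of a scaffold is given here up to its last annotated base, a lower bound that the member itself often sets. By this measure the 36 scaffolds ranged from 469 bases to 223 kb with a median of 5.39 kb, and 23 were under 10 kb. Scaffold 63 reached 462 kb and scaffold 14 reached 59.4 Mb. In all, 49 of 62 members (79.0%) lay on scaffolds shorter than 1 Mb, against 12.5% of all gene models.

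**Figure D1:**
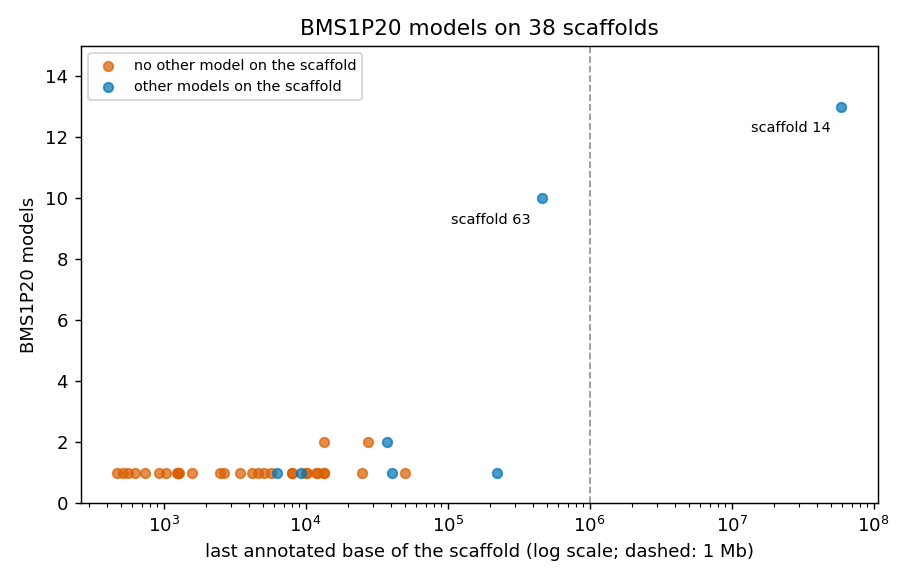
Number of BMS1P20 models per scaffold (vertical axis) against the last annotated base of the scaffold (horizontal axis, log scale); each point is 1 of 38 scaffolds, coloured by whether any other model lies on it, and the dashed line marks 1 Mb. Scaffolds 14 and 63 carry 13 and 10 models, and every other scaffold carries 1 or 2.

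The members matched 2 separate stretches of the BMS1P20 target and almost nothing between them. In 19 members the match lay between target bases 1049 and 1414, called the early part here, and in 41 it lay between bases 1700 and 2008, the late part. None of these 60 matches touched bases 1415 to 1699. The other 2 members ran across both parts: BMS1P20_copy24 on scaffold 63 from base 1060 to 1983 and BMS1P20_copy33 on scaffold 14 from base 1076 to 1976. Most starts were sharp. Of the early matches, 16 of 19 began at base 1060, and of the late matches 30 of 41 began between bases 1700 and 1708. The ends varied more. Early matches ended between bases 1163 and 1414, 7 of 19 of them at base 1414. Late matches ended between bases 1915 and 2008, 8 of 41 of them at base 2008. A match covered a median of 291.5 target bases, from 104 to 924, which is 14.5% of the 2008 bases up to the highest matched base. No member matched the target before base 1049.

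The start of the match coincided with an exon boundary of the mole models. For each member of several coding exons, the target base opposite the first base of its second exon was read off, with the alignment taken as free of gaps between that base and the start of the match. Among early members of several exons, 14 of 17 placed the second exon at target base 1062. Among late members of several exons, 29 of 33 placed it at target base 1706, including 7 whose match began only at base 1727, within the second exon. BMS1P20_copy24, which matched both parts, also placed it at base 1062. In 37 members the match began within 10 bases of the start of the second exon. In these members the first exon lay almost wholly outside the matched part.

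**Figure D2:**
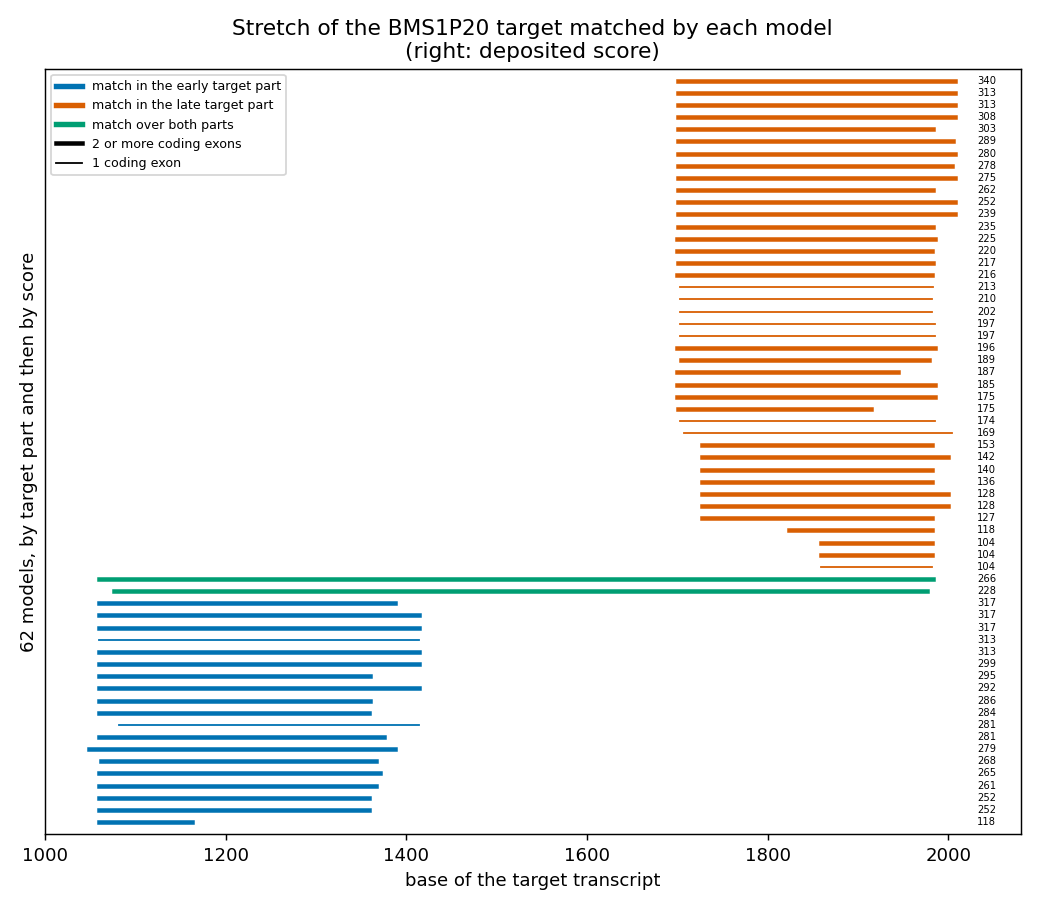
Stretch of the BMS1P20 target transcript matched by each of the 62 models (horizontal axis, target base); 1 line per model, ordered by target part and then by deposited score, which is printed at the right, with thick lines for models of 2 or more coding exons and thin lines for single-exon models. Early matches end by base 1414 and late matches begin at base 1700 or later, and only 2 models cross the stretch between.

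The deposited score, given by the authors to each transcript's match, ranged from 104 to 340 with a median of 237, and the copy suffix followed it: the score never rose from one suffix to the next. The model without a suffix, on scaffold 2567 from 3711 to 4178, had the highest score, 340. It had 2 coding exons of 46 and 332 bases parted by an intron of 90 bases and matched target bases 1701 to 2008. The lowest score, 104, belonged to BMS1P20_copy60, BMS1P20_copy61 and BMS1P20_copy62, which matched 124 bases from base 1859 on. Early members had a median score of 284 (118 to 317) and late members 197 (104 to 340), so the ranges overlapped widely. By place, the median was 265 on scaffold 14, 287.5 on scaffold 63 and 216 on the other scaffolds.

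The exon structure was narrow in kind. Of the 62 members, 40 (64.5%) had exactly 2 coding exons, against 8.70% of all models. There were 10 members with 1 coding exon, 9 with 3 and 3 with 4. All 10 single-exon members came from exonerate, a program that aligns proteins or transcripts to a genome. Exonerate gave 20 members in all, of which 9 had 2 coding exons, against 13.5% of all exonerate models. EVM, which combines several lines of evidence into 1 model, gave 41 members, and 31 of these had 2 coding exons, against 5.45% of all EVM models. The remaining member, BMS1P20_copy59, came from a source named ALN, had 4 coding exons, and its transcript is named after LV405_HUMAN, a human lambda variable region protein. By place, 2 coding exons were found in 6 of 13 members on scaffold 14, 7 of 10 on scaffold 63 and 27 of 39 elsewhere.

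**Figure D3:**
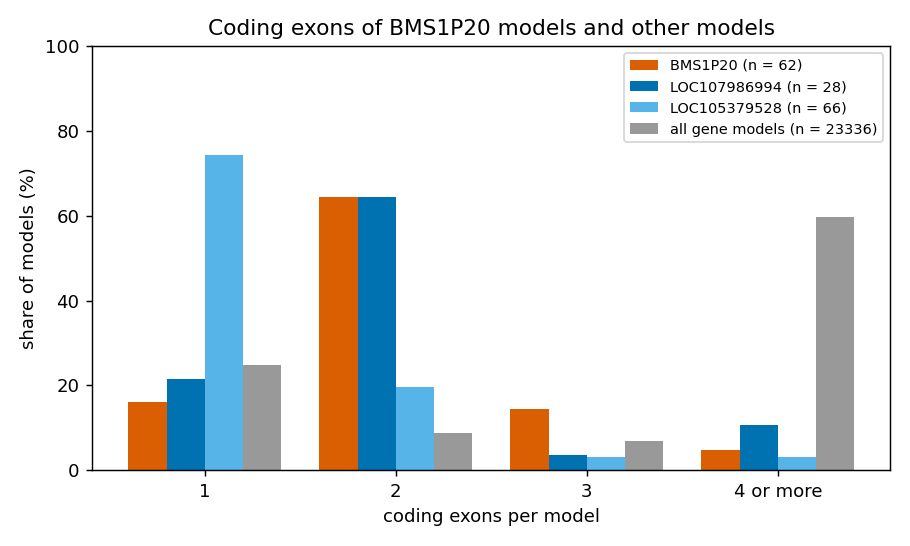
Share of models (%) by number of coding exons for BMS1P20 (n = 62), LOC107986994 (n = 28), LOC105379528 (n = 66) and all gene models (n = 23336). Of the BMS1P20 models 64.5% have 2 coding exons, close to the 64.3% of LOC107986994, against 8.70% of all models.

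Coding sequences were short. The members' coding length had a median of 439 bases, against 1011 for all models and 633 for the 2031 models of 2 coding exons. The shortest was BMS1P20_copy58 on scaffold 63, with 238 bases in 2 exons that lay 42018 bases apart. The longest was BMS1P20_copy26 on scaffold 599, with 1074 bases in 4 exons. The 40 members of 2 exons had a median of 448.5 bases and ranged from 238 to 723. Early members had a median of 492 bases and late members 378. Coding length was a multiple of 3 in 52 of 62 members (83.9%), near the 87.8% of all models. Of the other 10 members, 8 came from exonerate and 2 from EVM.

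The first coding exon took 2 preferred lengths. They were picked as the 2 commonest among these same members, so part of the excess over all models follows from the choice. The models of the whole annotation include the members. Among the 52 members of several coding exons it was 46 bases long in 18 (34.6%) and 136 bases long in 13 (25%), against 0.706% and 0.438% of the 17565 models of several coding exons in the whole annotation. The preferred lengths differ by 90 bases, or 30 codons. All 18 members with a first exon of 46 bases had their match in the late part. A first exon of 136 bases was found in 6 early members, 6 late members and 1 that matched both parts. VPREB1, the variable-like part of the surrogate light chain of precursor B cells, also had a first coding exon of 46 bases and 2 coding exons, with an intron of 80 bases. VPREB3, also a surrogate light chain gene, had 2 coding exons too, but a first one of 73 bases and an intron of 714 bases.

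Introns fell into separate classes. Of the 40 members of 2 coding exons, 22 (55.0%) had an intron between 79 and 120 bases with a median of 110. Over all models of 2 coding exons, 9.80% had an intron of at least 60 and fewer than 130 bases, and the median intron was 1142 bases. Another class of 8 members had introns between 355 and 391 bases. The 9 longest ranged from 3270 bases to the 59837 bases of BMS1P20_copy13 on scaffold 63. The remaining intron, of 35 bases, was that of BMS1P20_copy2 on scaffold 3439. Of the 22 short introns, 7 were in early and 15 in late members, and of the 9 long ones, 6 were in early members, 2 in late ones and 1 in BMS1P20_copy33.

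The class of 8 was at the same time a group by match. All 8 members with an intron of 355 to 391 bases had a first exon of 46 bases and a late match that began at base 1727 or later. The 8 are not all distinct structures. BMS1P20_copy55 and BMS1P20_copy56 had equal exon and intron lengths, and so had BMS1P20_copy60 and BMS1P20_copy61. Of 41 late members, 11 had such a late start. Their scores ran from 104 to 153, below the 169 to 340 of the other 30 late members with no overlap, and none of the 11 lay on scaffold 14 or 63. Of the other late members, 17 had 2 coding exons, and 15 of those had an intron between 79 and 120 bases. The score and the first matched base come from the same match, so only the intron length is a separate measurement here.

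**Figure D4:**
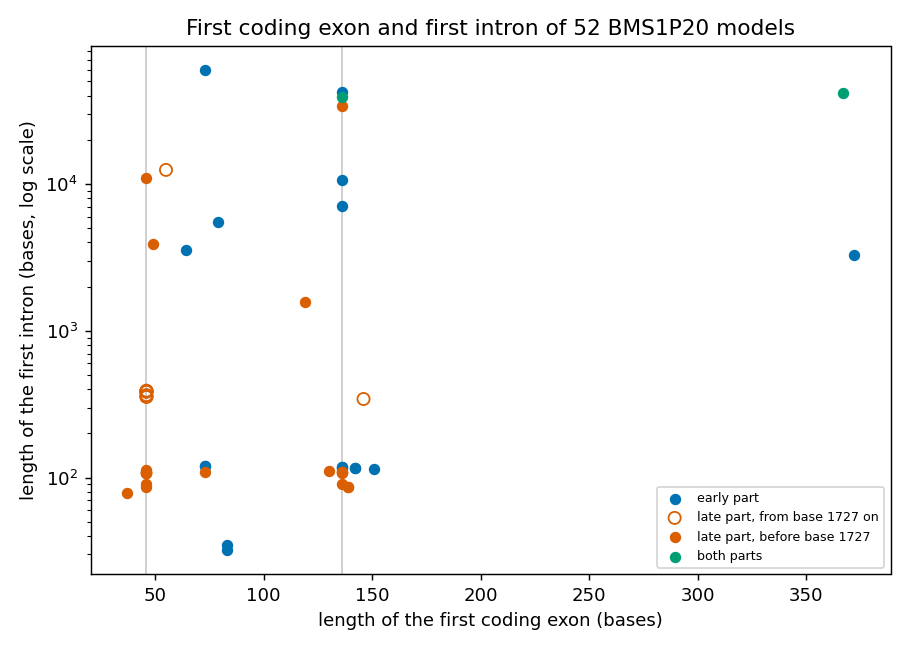
Length of the first intron (vertical axis, bases, log scale) against length of the first coding exon (horizontal axis, bases) for the 52 BMS1P20 models of several coding exons; colour marks the target part matched, open circles mark late matches that begin at base 1727 or later, and grey lines mark 46 and 136 bases. The open circles at 46 bases have introns of 355 to 391 bases, above the late models with introns of 79 to 120 bases.

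In 1 pair of members, a long and a short intron joined exons of the same lengths. BMS1P20_copy4 and BMS1P20_copy6, both on the minus strand of scaffold 14, had first exons of 136 bases and second exons of 356 bases. Their introns were 10603 and 115 bases long. A last exon of 356 bases occurred in 4 members, the others being BMS1P20_copy3 and BMS1P20_copy11, and all 4 lay on scaffold 14. Each other member of 2 coding exons with a long intron differed from every one with a short intron in at least 1 exon length. Single lengths were shared, however. BMS1P20_copy36 and BMS1P20_copy44 both had second exons of 278 bases, with introns of 3884 and 108 bases. BMS1P20_copy9 and BMS1P20_copy13 had second exons of 587 and 527 bases, lengths found in no other member. Of the 9 members of 3 coding exons, 4 (BMS1P20_copy16, BMS1P20_copy24, BMS1P20_copy25 and BMS1P20_copy43) had a middle exon of 312 bases, each on a different scaffold.

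Some members repeated the structure of another exactly. There were 5 pairs, 10 members in all, with equal exon and intron lengths, which is 19.2% of the members of several coding exons against 0.376% of all such models. In each pair the members lay on different scaffolds. BMS1P20_copy15 on scaffold 63 and BMS1P20_copy12 on scaffold 6248 shared exons of 136 and 434 bases and an intron of 118 bases, and their scores were 286 and 295. BMS1P20_copy19 on scaffold 63 and BMS1P20_copy29 on scaffold 832 shared exons of 136 and 509 bases and an intron of 110 bases, with scores of 280 and 252. The pair of BMS1P20_copy28 and BMS1P20_copy30 extended to a neighbour: on scaffolds 651 and 314, a single-exon model of FAAP24, a DNA repair protein gene, lay 2081 bases from each.

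Members that lay near each other shared a strand. Taking members up to 100 kb apart as a cluster, 28 of 62 (45.2%) fell into 6 clusters, 3 of them pairs. The pairs lay on scaffolds 339, 379 and 523, which reached 37.4, 27.4 and 13.5 kb. Any members sharing such a scaffold form a cluster under this limit. No such share was computed for models of other names. All 22 pairs of neighbouring members within clusters were on the same strand, against 52.7% of the 18076 pairs of neighbouring gene models at most 100 kb apart. Over all members, 43 were on the plus strand and 19 on the minus strand, but a scaffold's orientation is arbitrary and the strands of different scaffolds cannot be set against each other.

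The first cluster on scaffold 14 held 8 members on the plus strand in 72.4 kb, from 49457742 to 49530130. In order they were BMS1P20_copy11, copy20, copy50, copy3, copy41, copy40, copy39 and copy49, with gaps of 2.09 to 18.7 kb. Early and late matches lay side by side, 3 and 5 of them. The 5 late members were all single-exon models of 339 to 368 bases, and the 3 early members all had 2 coding exons. Of these, BMS1P20_copy11 and BMS1P20_copy3 had introns of 116 and 115 bases, and BMS1P20_copy20 had one of 5492 bases.

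The second cluster on scaffold 14 held 4 members on the minus strand in 137 kb, from 50194011 to 50331446, and lay 664 kb beyond the first. Its members, BMS1P20_copy25, copy4, copy6 and copy17, all matched the early part and had scores of 265 to 317. BMS1P20_copy25 had 3 coding exons of 142, 312 and 200 bases, and BMS1P20_copy17 had 3 of 83, 120 and 237 bases with a first intron of 32 bases. The last 86.0 kb of spacing, between BMS1P20_copy6 and BMS1P20_copy17, held single-exon models of FUNDC2 and CYB5B, genes of mitochondrial outer membrane proteins.

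Scaffold 63 was an array of members and little else. Its 10 members, from BMS1P20_copy15 at 43125 to BMS1P20_copy19 ending at 461637, were all on the plus strand, with gaps of 2.13 to 98.7 kb and a median gap of 13.9 kb. The only other models on the scaffold were 2 without a gene symbol. Of the 10 members, 4 matched the early part, 5 the late part and 1 both, in mixed order. The longest first introns on the scaffold were those of BMS1P20_copy13 with 59837 bases, BMS1P20_copy58 with 42018, BMS1P20_copy24 with 38890 and BMS1P20_copy9 with 34017. The first exon was 73 bases long in BMS1P20_copy13 and 136 bases long in the others. With no named gene on it, scaffold 63 cannot be placed in the genome from this annotation.

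**Figure D5:**
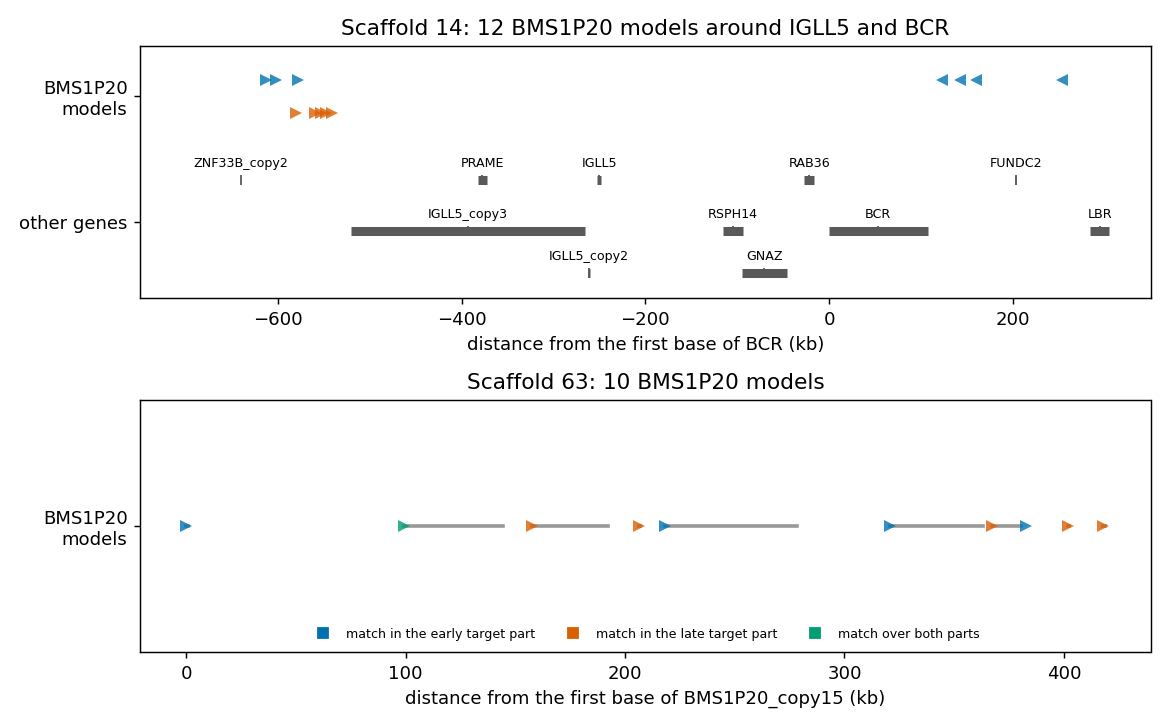
Positions of BMS1P20 models on scaffold 14 (upper panel, kb from the first base of BCR, with early matches drawn above late ones and other genes below) and on scaffold 63 (lower panel, kb from the first base of BMS1P20_copy15, grey lines spanning each model); arrowheads point along the strand and colours mark the target part matched. On scaffold 14, 8 plus-strand models lie before IGLL5_copy3 and 4 minus-strand models lie beyond BCR, and all 10 models on scaffold 63 are on the plus strand.

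Both clusters of scaffold 14 sat among genes that flank the lambda locus in human. IGLL5, a lambda-like gene that in human shares its last exon with a lambda constant region, had 3 models there, all on the plus strand like the first cluster. IGLL5_copy3 began 20.3 kb after BMS1P20_copy49. That model had 8 coding exons over 255 kb and enclosed PRAME, a tumour antigen gene that lies within the lambda locus in human. IGLL5_copy2 (49809136 to 49811045) and IGLL5 (49818798 to 49823334) followed, each with 3 coding exons. Then, 133 kb on, came RSPH14, a radial spoke protein gene, followed by GNAZ, a G protein subunit gene, RAB36, a small GTPase gene, and BCR, the gene joined to ABL1 in chronic myeloid leukaemia. The second cluster began 15.4 kb after the end of BCR. On the outer sides, ZNF33B_copy2, a single-exon zinc finger model, lay 26.2 kb before the first cluster, and LBR, the lamin B receptor gene, lay 24.1 kb beyond the second.

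The same count was made for every member and every model with a list of human flanking genes written from general knowledge. At least 2 listed lambda flank genes within 1 Mb were found for 12 of 62 members (19.4%), against 0.497% of all gene models. All 12 were the clustered members of scaffold 14. They lay in 2 clusters around 1 run of flank genes, so they are 1 locus and not 12 independent placements. On scaffolds of at least 1 Mb, where such a neighbourhood can be seen, they made up 12 of 13 members, against 0.568% of models. With the lists for the immunoglobulin kappa and heavy chain loci and for the T cell receptor alpha, beta and gamma loci, the count was 0 of 62 each time. Over all gene models the shares for these lists were also low, at 0.309%, 0.141%, 0.660%, 0.424% and 0.201% in that order, so a count of 0 is near the background. Of the listed symbols, 12 of 22 for the heavy chain and 6 of 13 for T cell receptor beta had no model. For the 49 members on shorter scaffolds the position cannot be decided from this annotation, so the 13 members on long scaffolds are those that could be placed and not a sample of all 62.

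The thirteenth member of scaffold 14 lay apart. BMS1P20_copy33, from 59347577 to 59389996 on the plus strand, was 9.02 Mb beyond BMS1P20_copy17. It lay 123 kb past DISP1, a gene for release of Hedgehog signals, and 48.6 kb before FUNDC2_copy2, the last model of the scaffold. Its 2 exons of 367 and 342 bases were 41711 bases apart, and its match crossed both target parts.

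The lambda flank genes themselves were divided between scaffolds. Of 41 listed symbols, 34 had a model. Counting models of 2 or more coding exons, 27 of the symbols lay on scaffold 11, 6 on scaffold 14 and 1 on scaffold 39, where UBE2L3 had another model beside the one on scaffold 11. The 6 on scaffold 14 were PRAME, IGLL5, RSPH14, GNAZ, RAB36 and BCR. On scaffold 11, VPREB1 lay 62.2 kb from TOP3B, a topoisomerase gene, with PRAMENP between them, and was followed after 48.7 kb by the single-exon zinc finger gene ZNF70, and VPREB3, another surrogate light chain gene, came 5.10 kb later. No BMS1P20 model lay on scaffold 11. BMS1 itself, from 1969271 to 2019085 on that scaffold with 22 coding exons and 3843 coding bases, lay 829 kb from VPREB3, and it shared neither the place nor the exon number of any member.

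Gene order in RefSeq's later mole assembly, MPIMG_talOcc4v2.1, gave a view of the same neighbourhood in which V segments are annotated as such. None of its 31603 genes is named BMS1P20. It lists 201 V segments and 20 constant regions. Of these V segments, 34 lay between RHOU and ZNF280B, 55 between ZNF280B and RSPH14 and 6 between BCR and ZNF33B, which makes 95 (47.3%), along with 8 constant regions between ZNF280B and RSPH14. Between TOP3B and ZNF70, which lie on scaffold 11 in the deposited build, it lists 0 V segments and the gene PRAME, whereas the deposited PRAME model lay on scaffold 14 within IGLL5_copy3. Between TOP3B and ZNF70 the deposited build had the PRAMENP model. The BMS1P20 clusters of the deposited build and the last 2 of these RefSeq stretches shared RSPH14 and BCR as nearby genes on the inner sides.

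The outer sides differed between the builds. In RefSeq, ZNF33B was the next named gene after BCR, whereas in the deposited build a ZNF33B model bordered the other cluster and LBR came after BCR. RefSeq had LBR between ENAH and ACTN2 and DISP1 between RYR2 and TLR5. RHOU, which with ZNF280B bounds 34 of the RefSeq V segments, lay on scaffold 33 in the deposited build, where no BMS1P20 model was found, and ZNF280B had no deposited model. Which deposited member corresponds to which RefSeq segment was not tested, since no sequence of either build was used here.

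Another symbol had a similar structure at the kappa position. LOC107986994 had 28 models, of which 18 (64.3%) had 2 coding exons, with a median coding length of 372 bases. The introns of those 18 ranged from 111 to 70483 bases with a median of 118 bases. Over the 40 BMS1P20 members of 2 coding exons the median was also 118 bases, taken across the separate intron classes given above. The commonest first exon of the 18 LOC107986994 models was 55 bases, in 12 of 18, and none had one of 46 bases. On scaffold 9, 12 of the 28 models lay between PAX8 and RPIA, a stretch of 428 kb with 17 models in all, and 11 of the 12 were on the plus strand. RPIA borders the kappa locus in human. None of the 17 was a BMS1P20 model, and RefSeq lists 20 V segments between the same genes. LOC105379528, singled out after its values were seen because 1 of its transcripts is named after HV105_HUMAN, a human heavy chain variable region protein, had 66 models with another profile: 19.7% had 2 coding exons and 98.5% lay on scaffolds under 1 Mb.

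The other symbols picked for a high share of 2-exon models had no model within 100 kb of a member. Among symbols with at least 10 models of which over 50% had 2 coding exons, the nearest in median coding length after LOC107986994 were RNA45S5 (292 bases), LOC105374013 (1008 bases) and LOC107985956 (1308 bases). The members' own median was 439 bases, so LOC105374013 and LOC107985956 resembled them in exon number and not in length. Of symbols with at least 3 models, those most often found within 100 kb of a member were FAAP24 with 2 of 4 models, IGLL5 with 1 of 4 and ZNF25 with 2 of 10. The fourth IGLL5 model was a single exon of 210 bases on scaffold 8897, a scaffold without a member.

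The genes that assemble antibodies were otherwise annotated as ordinary genes. Of a list of 35, 33 had a model, IGLL1 and CR2 being those without one, and 5 (UNG, PRKDC, IGLL5, PAX5 and TCF3) had several. RAG1 and RAG2, which cut DNA at recombination signals, lay beside each other on scaffold 18, from 18625644 to 18638307. DNTT, which adds bases at the joints, lay on scaffold 11, and JCHAIN, the joining chain of secreted antibodies, on scaffold 10. Except for IGLL5, none of these named genes lay within 1 Mb of a BMS1P20 model.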

How the data were processed

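The file analysed was the deposited talOcc3 gene annotation, which has no column for either library, so sequencing depth is unknown. The submitters' processing notes name BWA, with no role or version. Coordinates are the authors' deposited positions, counted from 1, and the score is the authors' deposited score of each transcript's match; how it was calculated is not stated in the sources used here. Each gene was joined to its transcript by name, scaffold and nearest start. Exons and introns came from coding records, so untranslated regions were not read. For minus-strand models, the positions of the match along the mole transcript were turned around, and target positions were kept as deposited. Clusters, flank windows (1 Mb, at least 2 listed genes of 2 or more coding exons) and shares were computed with Python 3.11.15, pandas 2.3.3 and numpy 2.4.6, and the routines were tested on simulated data. Alternatives varied the members counted, the scaffold limit, the cluster gap and the window.

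The members, the gene lists and the rule for named genes were chosen with earlier results of these data known. The rule took the unsuffixed model, the extremes of score and coding length, cluster ends, members on scaffolds of at least 1 Mb, genes beside their clusters, flank genes, immunoglobulin-related and antibody assembly genes, and symbols nearest in structure or place. Of the genes that the rule takes, 1 is not reported here. Other members are named as examples chosen after their values were seen. The RefSeq table of build MPIMG_talOcc4v2.1 served for names and gene order only.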

Additional observations from a re-analysis of the deposited data

How the results depend on the processing

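Of 30 alternatives over 8 results, 25 left the value within its 95% binomial interval, or a count within 1.5 times. Some of these 25 could not move. No member was marked as of low confidence, so leaving out such models changed nothing. No scaffold with a member ended between 1 and 5 Mb, so a limit of 5 Mb for a short scaffold changed nothing either. The other 5 alternatives follow. With scaffolds of at least 1 Mb only, 13 members remained, of which 92.3% were clustered, 46.2% had 2 coding exons and 92.3% lay near lambda flank genes. With a limit of 0.1 Mb for a short scaffold, 61.3% of members lay on short ones. Counting members of equal exon and intron lengths once, chosen after seeing the data, left 57. No paired analysis was possible because no result comes from a test and each tissue has 1 library. Members share their assembly, so intervals cover counting error only, and scaffold lengths are lower bounds.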
